A study of Mus musculus with 7 samples.

Results

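The genes described here code for the nuclear-encoded parts of the mitochondrial respiratory chain and the ATP synthase, in mouse bone marrow-derived macrophages given a bacterial ligand with or without an earlier exposure. A gene was taken when a probe set annotated to that single gene had a symbol starting with Nduf, Uqcr, Sdha to Sdhd, Cox4, Cox5, Cox6, Cox7, Cox8 or Atp5, pseudogene symbols left out. Where several probe sets matched a gene, the one with the highest mean over the 7 arrays was kept. This gave 94 genes of 18193 measured: 34 subunits of complex I, 4 of complex II, 8 of complex III, 19 of complex IV, 17 of complex V and 12 assembly factors that the symbols also catch. Ndufa4 and Ndufa4l2 were placed with complex IV, where the Ndufa4 protein belongs.

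The study asked which genes MDP (muramyl dipeptide, a ligand of NOD2) and Pam3CSK4 (a synthetic lipopeptide, a ligand of TLR2 with TLR1) induce in naive macrophages and in macrophages made tolerant by an earlier ligand. There was 1 array for each of 7 groups. Cells left untreated for 24 h then received nothing (unstimulated), MDP or Pam3CSK4 for 3 h. Cells pretreated with MDP for 24 h received MDP or Pam3CSK4 for 3 h, and cells pretreated with Pam3CSK4 for 24 h received MDP or Pam3CSK4 for 3 h. The labels give the doses as 10 mg/ml for MDP and 1 mg/ml for Pam3CSK4, and strain, sex and age are not given in the sources used here. No array holds cells that were pretreated and then left without a second ligand, so pretreatment and second ligand are seen only together. With 1 array per group there is no replicate spread and no test, so each value below describes these arrays. The main group counts are set beside the same counts over all genes. Total RNA was measured, so less RNA per cell and fewer cells of a type cannot be told apart. All 8 measured macrophage markers lay above the array median on every array, with a mean log2 level of 12.63 to 13.24.

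The respiratory chain passes electrons from NADH, through complex I, and from succinate, through complex II, to coenzyme Q, on to complex III, cytochrome c and complex IV, which hands them to oxygen. Complexes I, III and IV pump protons out of the matrix, and complex V, the ATP synthase, makes ATP from their return. Most subunits are encoded in the nucleus and a few in mitochondrial DNA. In macrophages, ligands of Toll-like receptors are known to turn metabolism towards glycolysis and to change how the chain is used, and succinate dehydrogenase is a known point of that change.

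A pair of promoter motifs has long been tied to genes of the chain, the site of NRF1 (nuclear respiratory factor 1) and the ETS site bound by GABP (also called NRF2), and the sequences below show them in members that come up in the results. RefSeq promoter windows, from 250 bases before to 50 after each gene's start in the build GRCm38.p6, were held for 78 of the 94 genes. The letters GCGCA, any base and GCGC (NRF1), and the letters CCGGAAG (ETS), were searched on both strands, and matches of different motifs were counted separately even where they overlap. The NRF1 letters were in 19 of 78 windows (24.4%), against 5.19% of the windows of all genes. The ETS letters were in 22 of 78 (28.2%), against 9.93%, and either motif was in 36 (46.2%), against 14.0%. A match is a string of letters, not a measured binding site. The stretches below are 5′ to 3′ on the strand of the gene, with the match in capitals. The first 5 hold the NRF1 letters and the last 3 the ETS letters.
Ndufs5, complex I, chr4:123718250-123718309, minus strand: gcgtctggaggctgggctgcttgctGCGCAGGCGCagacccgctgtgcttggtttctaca
Ndufa8, complex I, chr2:36049339-36049393, minus strand: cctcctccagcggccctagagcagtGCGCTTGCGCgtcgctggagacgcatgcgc
Sdhd, complex II, chr9:50603894-50603953, minus strand: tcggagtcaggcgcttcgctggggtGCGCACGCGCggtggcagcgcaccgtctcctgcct
Cox6a1, complex IV, chr5:115349086-115349145, minus strand: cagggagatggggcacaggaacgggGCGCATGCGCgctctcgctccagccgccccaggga
Ndufaf4, assembly factor, chr4:24897945-24898004, plus strand: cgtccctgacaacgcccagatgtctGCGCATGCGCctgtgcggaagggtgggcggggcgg
Ndufs3, complex I, chr2:90904722-90904773, minus strand: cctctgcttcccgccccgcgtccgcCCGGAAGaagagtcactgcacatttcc
Ndufb7, complex I, chr8:83566713-83566757, plus strand: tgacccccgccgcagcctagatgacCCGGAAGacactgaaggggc
Uqcrh, complex III, chr4:116075071-116075105, minus strand: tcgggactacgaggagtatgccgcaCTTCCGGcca

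By complex, the NRF1 letters were in 5 of 31 windows of complex I, 2 of 3 of complex II, 1 of 5 of complex III, 1 of 13 of complex IV, 6 of 15 of complex V and 4 of 11 of the assembly factors. The ETS letters were in 4, 2, 2, 3, 6 and 5 of the same windows. Among other letters searched, AAGATGG (YY1) was in 11 of 78 windows (14.1%, against 7.28% of all), CACGTG (an E-box) in 6 (7.69%, against 8.09%) and GGG and CC parted by 5 bases of any kind (a loose NF-kB site) in 48 (61.5%, against 53.5%).

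Most of the chain's genes were bright and even across the arrays. All values are log2 intensities, and levels of different probe sets are not comparable as amounts of RNA. Of the 94 genes, 90 lay above the array median on all 7 arrays. Cox7b2, Cox8b and Ndufb4 lay below it on every array, and Cox6b2 lay above it on 5. That median, 5.48 to 5.55, is taken over all probe sets. With the brightest probe set kept per gene, the median of all 18193 genes was 6.76 to 6.82, so most genes pass it as well. The median of the 94 genes was 11.77 to 11.97. Cox7b2 and Cox8b are isoforms known from other tissues, whereas the probe set annotated to Ndufb4 alone was dim beside another that the annotation gives to Ndufb4 together with its copies Ndufb4b and Ndufb4c, which read 11.54 to 11.85. The Cox7c probe sets were also dim, at 5.70 to 6.18 for the brighter. A dim probe set is therefore not read here as a low level of its gene. The difference between the highest and lowest of the 7 arrays was under 0.5 for 76 of the 94 genes, compared with 66.3% of all genes, and for 65 of the 76 members with a mean level of at least 10, compared with 55.9% of such bright genes. Its median was 0.36 in complex I, 0.25 in complex II, 0.18 in complex III, 0.26 in complex IV, 0.20 in complex V and 0.45 among the assembly factors.

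**Figure D1:**
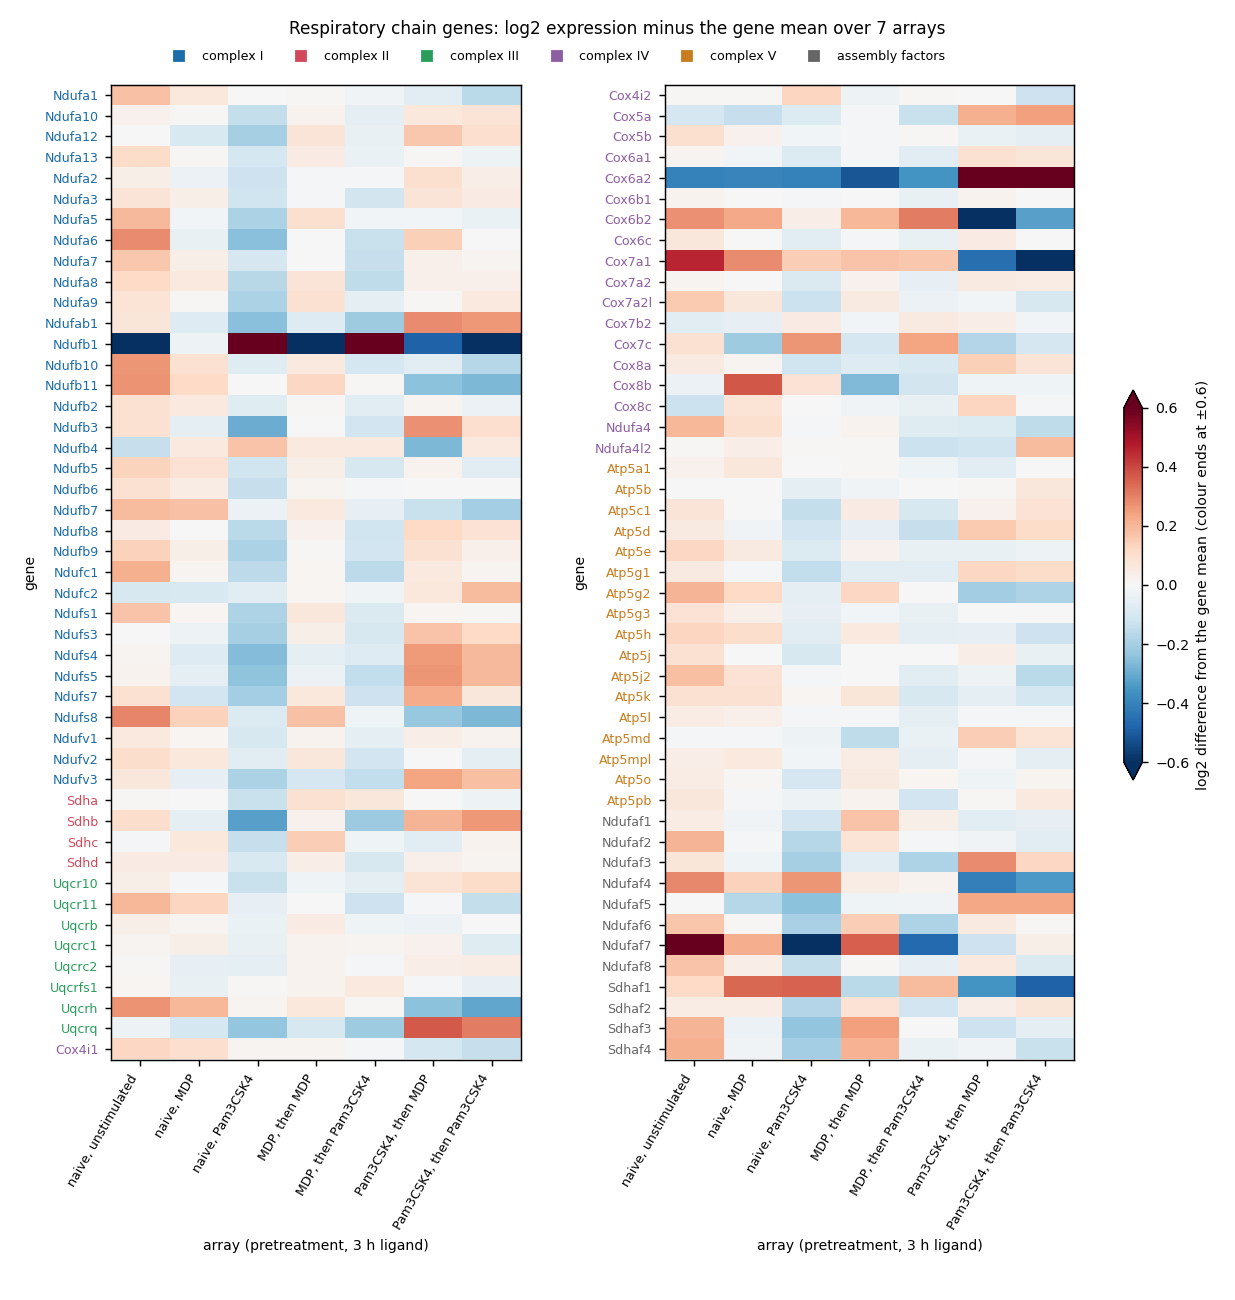
Log2 expression of each of the 94 genes on each of the 7 arrays, minus the gene's own mean over the arrays, with gene names coloured by complex and colours ending at 0.6 in either direction. Most rows are pale, Ndufb1 (complex I), Cox6a2 and Cox7a1 (complex IV) and Ndufaf7 (assembly) are the strongest, and the naive Pam3CSK4 column is mainly blue.

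The narrowest ranges were found in every complex. Cox6b1, a subunit at the dimer face of complex IV, spanned 0.07 over the 7 arrays, from 13.43 to 13.49. Uqcrb, a subunit of complex III near its coenzyme Q site, spanned 0.09, and the core protein Uqcrc2 and the Rieske iron-sulfur subunit Uqcrfs1 spanned 0.10 and 0.11. In complex V, Atp5l spanned 0.10 and both Atp5mpl and the catalytic beta subunit Atp5b 0.12. In complex I the narrowest were Ndufv1, the subunit that takes electrons from NADH, at 0.16, Ndufb2 at 0.16 and Ndufa3 at 0.20. Sdhd, a membrane anchor of complex II, spanned 0.14.

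In naive cells most members read slightly lower after a single 3 h exposure than in unstimulated cells, by a larger median after Pam3CSK4 than after MDP. After MDP, 76 of the 94 lay lower by any amount, against 49.1% of all genes and 65.8% of bright genes (those with a mean level of at least 10), with a median difference of -0.07. When arrays were scaled to each other along the whole intensity range (cyclic loess), 53 lay lower after MDP (8972 of all 18193 genes did), with a median of -0.015. After Pam3CSK4, 82 lay lower, against 49.8% of all genes, with a median of -0.19. Sizes were small: with MDP no member was 1.5-fold lower (1.23% of all genes were) and 1 was 1.5-fold higher (1.64%), and with Pam3CSK4 1 was lower (6.07%) and 1 higher (4.11%). The member that was higher was Ndufb1 in both cases, and the lower one was the assembly factor Ndufaf7. Bright genes as a whole also leaned lower: among all genes with a mean level of at least 10, 65.4% were lower after Pam3CSK4, with a median of -0.10, and 73 of the 76 bright members were.

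The same comparison by complex put complex I and the assembly factors lowest. After Pam3CSK4 in naive cells the median difference from unstimulated cells was -0.25 in complex I (31 of 34 lower), -0.14 in complex II (4 of 4), -0.12 in complex III (8 of 8), -0.10 in complex IV (11 of 19), -0.14 in complex V (17 of 17) and -0.29 among the assembly factors (11 of 12). With cyclic loess, which moved the median of bright genes to 0.01, complex I was at -0.14 with 31 of 34 lower, while complexes II, III, IV and V were between -0.04 and -0.01. After MDP the medians were -0.08 in complex I (31 of 34 lower), -0.06 in complex III and complex V, -0.04 in complex IV and -0.16 among the assembly factors, and 2 of the 4 members of complex II were lower. With cyclic loess the MDP medians were -0.018 in complex I (22 of 34 lower), 0.0024 in complex III, -0.0078 in complex IV, 0.0016 in complex V and -0.095 among the assembly factors, so that the sign in complexes III and V depends on the scaling.

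**Figure D2:**
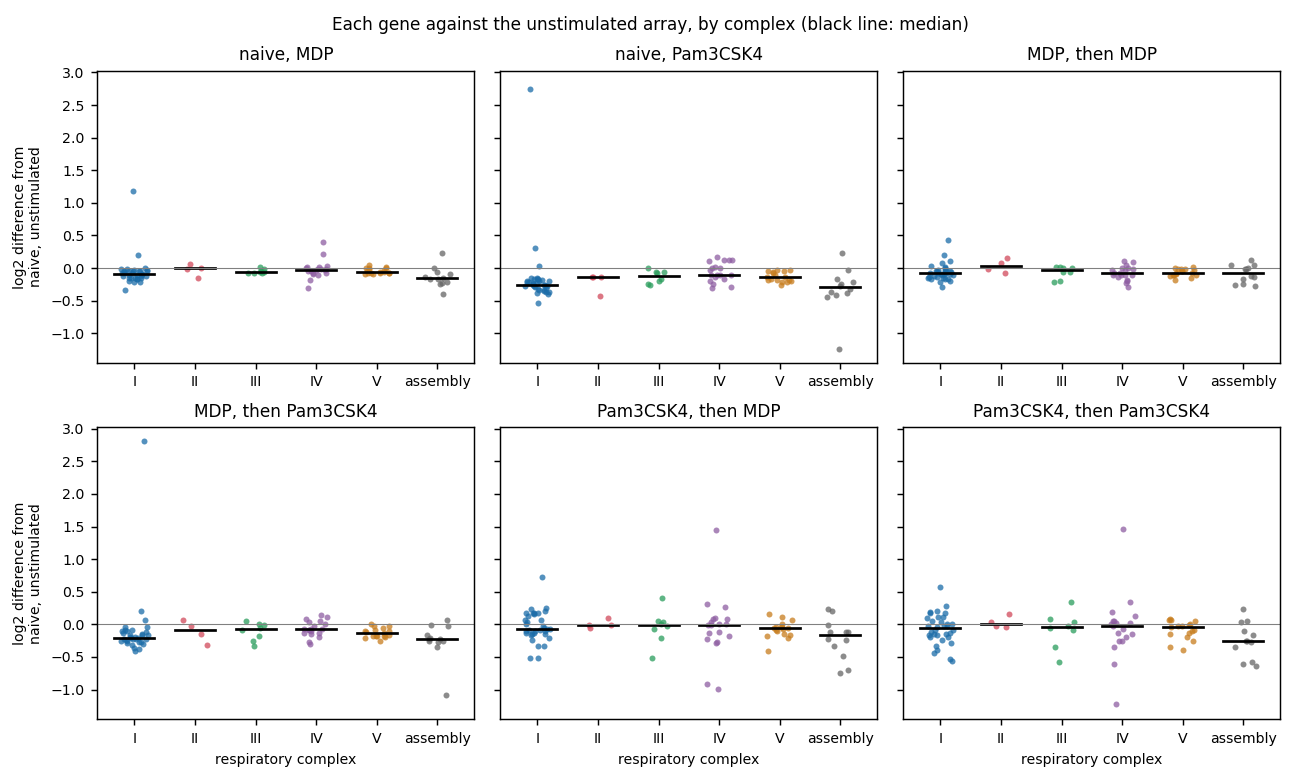
Log2 difference of each member from the unstimulated array, in 6 panels for the 6 other arrays, grouped by complex, with a line at each group's median. The points lie mainly below 0 in the panels of naive Pam3CSK4 and of MDP followed by Pam3CSK4, with complex I medians of -0.25 and -0.20, and spread to both sides of 0 in the panels of Pam3CSK4-pretreated cells.

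Arrays of MDP-pretreated cells were near those of naive cells given the same ligand, with a median absolute difference over the members of 0.05 for either ligand. From unstimulated cells, naive Pam3CSK4 differed by 0.20, but naive MDP by only 0.07, so for MDP the contrast is small. Over all genes the differences from the matching naive array were 0.12 for MDP and 0.10 for Pam3CSK4. Those of the naive arrays from unstimulated cells were 0.13 and 0.16. After MDP followed by MDP, 72 of the 94 lay below the unstimulated array (52.9% of all genes and 60.3% of bright genes did), with a median of -0.07. No member differed from that array 1.5-fold (0.247% of all genes were lower and 1.56% higher by that much). Set against the first MDP exposure the median was -0.0010 with 47 lower (51.5% of all genes), and 2 members, Ndufb1 and Cox8b, were 1.5-fold lower (1.13% of all genes, and 2.26% were higher by that much, no member among them). Cox8b lay below the array median on both arrays, so its difference has no size. After MDP followed by Pam3CSK4, 80 lay below the unstimulated array (52.3% of all genes and 61.1% of bright genes), with a median of -0.15. At 1.5-fold, 1 member was lower (5.32%) and 1 higher (5.41%). Against naive cells given Pam3CSK4, the MDP then Pam3CSK4 array was higher in 66 members (47.9% of all genes were) and lower in 28 (46.1%, and 40.2% of bright genes). The median was 0.04, and no member differed 1.5-fold either way (0.192% lower, 1.76% higher).

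Setting Pam3CSK4 against MDP within the same pretreatment gives comparisons that share no array. In naive cells 84 of the 94 were lower with Pam3CSK4 than with MDP (56.9% of all genes and 62.6% of bright genes), with a median of -0.13. In MDP-pretreated cells 78 were lower (50.5% and 58.1%), with a median of -0.08. Lower in both were 75 members (79.8%), against 37.0% of all genes and 52.3% of bright genes. Across the 94 genes these differences had a Pearson correlation of 0.916 and a Spearman correlation of 0.591, against 0.833 and 0.538 over all genes and 0.914 and 0.840 over bright genes. These are descriptions across genes, which share arrays and are not independent replicates. Ndufb1, at 1.565 and 2.384, lay far above every other member in both differences, and Ndufaf7, at -0.85 and -0.83, far below. The weight of these genes in the Pearson correlation was not tested. In Pam3CSK4-pretreated cells 62 were lower with Pam3CSK4 than with MDP (44.7% of all genes and 47.8% of bright genes), by a median of only -0.03.

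Many members were lowest on the same pair of arrays. In 42 of the 94 genes, both arrays given Pam3CSK4 without Pam3CSK4 pretreatment lay below all 5 others, a pattern chosen after its values were seen that 13.2% of all genes and 22.2% of bright genes showed. These were 23 of complex I, 2 of complex II, 2 of complex III, 5 of complex IV, 6 of complex V and 4 assembly factors. With cyclic loess 29 showed it (11.6% of all genes), and with each array centred on its median 31 did, without a share of all genes set beside it. The opposite, both arrays above all others, held in 3 members (8.25% of all genes), Ndufb1, Cox7c and Cox7b2, the last not distinguishable from background.

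**Figure D3:**
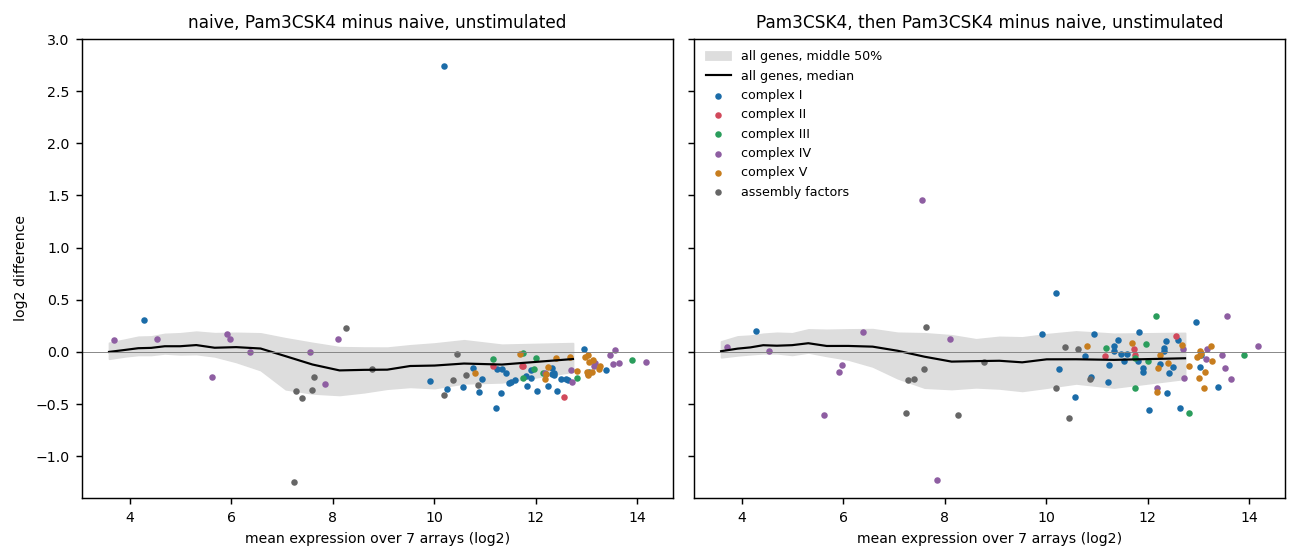
Log2 difference from the unstimulated array against the gene's mean log2 level over 7 arrays, for naive cells given Pam3CSK4 (left) and Pam3CSK4-pretreated cells given Pam3CSK4 (right), with members as points coloured by complex, the median of all genes as a black line and the middle 50% of all genes in grey. On the left many complex I points sit below the black line at the same level, and on the right points lie on both sides of it.

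Within complex I the lower values were spread over its parts. In what follows, 7 values in a row are log2 levels in the fixed order unstimulated, naive MDP, naive Pam3CSK4, MDP then MDP, MDP then Pam3CSK4, Pam3CSK4 then MDP, and Pam3CSK4 then Pam3CSK4. Ndufa6, an accessory subunit of the matrix arm, read 11.50, 11.16, 10.96, 11.21, 11.08, 11.35 and 11.21. It was highest in unstimulated cells and lowest on the arrays given Pam3CSK4 without Pam3CSK4 pretreatment. Ndufs1, the iron-sulfur subunit that carries several of the electron-passing clusters, read 10.42, 10.26, 10.07, 10.32, 10.17, 10.26 and 10.26. Its lowest readings were on the same pair of arrays. Ndufa8, whose promoter stretch is printed above, read 11.64, 11.58, 11.35, 11.60, 11.37, 11.55 and 11.55, and the same pair stood below every other array.

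Other members of complex I were lowest on that pair and highest after Pam3CSK4 pretreatment. Ndufab1, the mitochondrial acyl carrier protein that is also a complex I subunit, read 11.90, 11.75, 11.58, 11.75, 11.61, 12.11 and 12.09. Ndufs5, an accessory subunit with the NRF1 letters in its promoter window, read 10.95, 10.88, 10.69, 10.90, 10.79, 11.20 and 11.13. In both genes the 7 arrays fell into the same 3 levels without overlap. Ndufs4, a subunit needed for stable assembly of the complex, read 9.94, 9.84, 9.66, 9.87, 9.84, 10.18 and 10.11. Here too the Pam3CSK4-pretreated arrays were highest, while MDP followed by Pam3CSK4 was level with naive MDP.

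A smaller set of complex I members had its lowest levels after Pam3CSK4 pretreatment. Ndufs8, an iron-sulfur subunit next to the coenzyme Q site, read 12.31, 12.15, 11.93, 12.19, 11.99, 11.79 and 11.75. Ndufb11, a membrane-arm subunit, read 12.90, 12.75, 12.63, 12.75, 12.64, 12.38 and 12.36. Both were highest in unstimulated cells, lower with Pam3CSK4 alone and lowest on the Pam3CSK4-pretreated arrays. Ndufb7, with the ETS letters printed above, went the same way at 12.56, 12.55, 12.33, 12.43, 12.32, 12.23 and 12.16.

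Ndufb1 had the widest range of all members, 2.82 against 1.56 for the next, Cox6a2. This small membrane-arm subunit read 8.98, 10.16, 11.72, 9.41, 11.79, 9.70 and 9.54. Both arrays given Pam3CSK4 without Pam3CSK4 pretreatment were far above the others, naive MDP came next, and the Pam3CSK4-pretreated arrays were close to MDP followed by MDP. The naive Pam3CSK4 array was 6.71-fold above unstimulated cells, MDP then Pam3CSK4 7.05-fold and naive MDP 2.27-fold. After Pam3CSK4 pretreatment the second Pam3CSK4 array was 4.53-fold below the first exposure. It rests on a single probe set, annotated to the gene at chr12:101968096-101975738 (GRCm38.p6, from RefSeq), whose older names in RefSeq include a pseudogene symbol. Which transcript the probe set detects was not tested, so these values are those of the probe set annotated to Ndufb1. The neighbouring gene Cpsf2, which starts at 101975759, read 9.60 in unstimulated cells, 9.60 with Pam3CSK4 and 9.72 with MDP then Pam3CSK4. Atxn3, on the other side, read 8.30, 8.41 and 8.14 on the same arrays, so neither neighbour differed there by anything close to the difference in Ndufb1.

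In complex II, Sdhb, the iron-sulfur subunit of succinate dehydrogenase, had the widest range, 0.58. It read 12.65, 12.49, 12.22, 12.57, 12.33, 12.75 and 12.81, lowest on the arrays given Pam3CSK4 without Pam3CSK4 pretreatment and highest on the pretreated ones, with no overlap. Sdhd differed in the same direction on the first pair but by far less, at 11.66 and 11.65 against 11.76 to 11.80 on the other arrays. Sdha, the flavoprotein that oxidises succinate, read 11.02 on the naive Pam3CSK4 array and 11.12 to 11.24 on the others. Sdhc, the other membrane anchor, was also lowest there, at 11.58 against 11.66 to 11.87.

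In complex III a pair of small subunits lay at opposite ends after Pam3CSK4 pretreatment. Uqcrq, a small subunit that binds cytochrome b, read 12.12, 12.05, 11.92, 12.05, 11.94, 12.52 and 12.46. Uqcrh, the hinge protein that helps cytochrome c to dock, read 13.08, 13.01, 12.83, 12.87, 12.82, 12.56 and 12.50. The pretreated pair was above all other arrays in Uqcrq and below all others in Uqcrh. The Uqcrq value comes from a probe set of a less specific class, and its other probe sets were dim: the difference between Pam3CSK4 then MDP and naive MDP was 0.48 in it, 0.19 in the mean of its probe sets and 0.07 without that class. Cyc1, the cytochrome c1 of the complex, which the symbol rule does not catch, read 11.85 in unstimulated cells and 12.15 and 12.09 on the pretreated arrays.

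In complex IV, Cox5a, a matrix-side subunit of complex IV, read 13.46, 13.42, 13.48, 13.55, 13.43, 13.77 and 13.80, and the Pam3CSK4-pretreated pair was above all others in each of its 3 probe sets. Cox4i1, the main form of a regulatory subunit, read 13.77, 13.75, 13.66, 13.66, 13.64, 13.54 and 13.51, and that pair was lowest. In complex V, the c-ring subunit is made from 3 genes whose proteins are the same once mature. Atp5g1 read 10.87, 10.80, 10.66, 10.74, 10.74, 10.93 and 10.92, Atp5g2 12.40, 12.31, 12.13, 12.32, 12.19, 11.98 and 12.01, and Atp5g3 13.35, 13.30, 13.22, 13.25, 13.22, 13.27 and 13.27. After Pam3CSK4 pretreatment, then, Atp5g1 was above all other arrays, Atp5g2 below all others and Atp5g3 within their span. Atpif1, the inhibitor of the synthase, which the rule does not catch, read 12.46 in unstimulated cells, 12.25 with Pam3CSK4 and 11.78 and 11.82 on the pretreated arrays.

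After Pam3CSK4 pretreatment the members lay on both sides of unstimulated cells. Against these, 61 of 94 were lower after Pam3CSK4 then MDP (45.8% of all genes), with a median of -0.06, and 59 after Pam3CSK4 then Pam3CSK4 (44.0%), with a median of -0.05. Of bright genes 58.7% and 58.6% were lower on these arrays, with medians of -0.08 and -0.07, so the members lay close to bright genes. With cyclic loess the medians of the members were 0.04 and 0.03, so their sign depends on the scaling. At 1.5-fold, 4 were lower (7.41%) and 2 higher (5.28%) on the first array, and 4 were lower (6.58%) and 1 higher (5.16%) on the second. The lower ones were Cox7a1, Ndufaf4 and Cox6b2 on both, with Ndufaf7 on the first and Sdhaf1 on the second, and Cox6b2 counts by a reading below background, so that 3 remain on each without it. The higher ones were Cox6a2 on both and Ndufb1 on the first. Each of these counts is a smaller share of the members than of all genes.

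Against the same ligand in naive cells, the members as deposited were balanced for MDP and mostly higher for Pam3CSK4. For MDP, 45 members were lower after Pam3CSK4 pretreatment (50.9% of all genes and 52.9% of bright genes) and 44 higher (44.2% of all genes), with a median of 0.00. At 1.5-fold, 3 were lower (4.89%), Cox7a1, Sdhaf1 and, by its reading, Cox6b2, and 1, Cox6a2, higher (4.95%). With cyclic loess 32 members were lower for MDP (8965 of all 18193 genes and 1466 of 3165 bright genes were), with a median of 0.049. The balance for MDP therefore depends on the scaling. For Pam3CSK4, 66 were higher (51.6% of all genes) and 28 lower (42.9%, and 47.6% of bright genes), with a median of 0.10. There 4 were 1.5-fold lower (5.25%), Ndufb1, Cox7a1, Sdhaf1 and Ndufaf4, and 2, Cox6a2 and Ndufaf7, higher (6.77%). By complex the median was 0.17 in complex I (27 of 34 higher), 0.13 in complex II (4 of 4), 0.0069 in complex III (4 of 8), -0.0040 in complex IV (9 of 19), 0.05 in complex V (12 of 17) and 0.14 among the assembly factors (10 of 12). These comparisons share no array, and across the 94 genes they had a Pearson correlation of 0.757 and a Spearman correlation of 0.783, against a Pearson correlation of 0.666 over all genes and 0.713 over bright ones. Higher in both were 40 members (42.6%), against 30.9% of all genes and 38.1% of bright genes, and lower in both were 24 (25.5%), against 29.8% and 39.4%. The direction was the same in 68.1% of the members, 60.7% of all genes and 77.5% of bright genes.

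**Figure D4:**
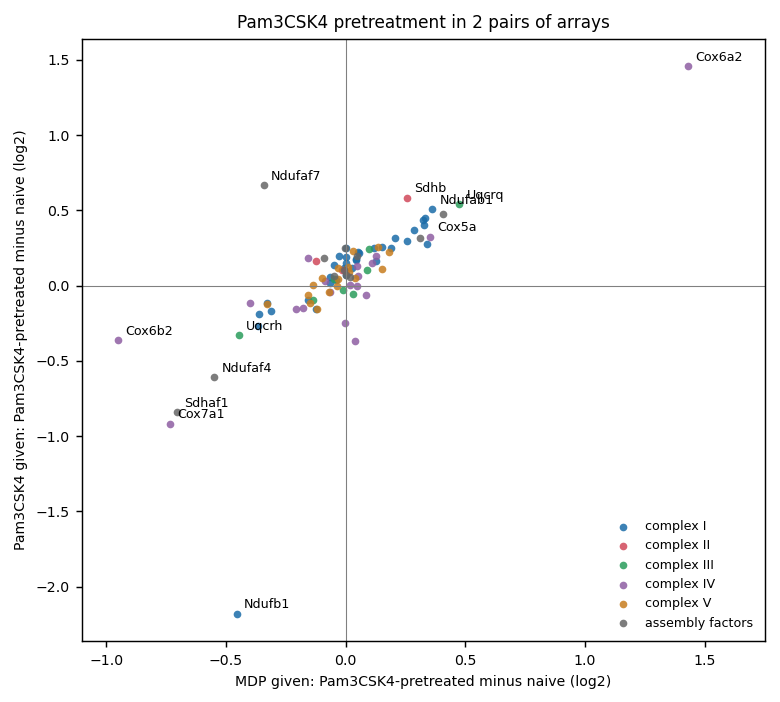
Log2 difference made by Pam3CSK4 pretreatment in cells then given MDP (horizontal) and in cells then given Pam3CSK4 (vertical), each against naive cells given the same ligand, with 1 point per member coloured by complex. Cox6a2 is high on both axes, Cox7a1, Sdhaf1 and Ndufaf4 are low on both, Ndufb1 is low mainly on the vertical axis, and Ndufaf7 is low on the horizontal and high on the vertical one. Cox6b2 is drawn at its readings, which are below the array median after pretreatment.

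In 26 members both Pam3CSK4-pretreated arrays lay above all 5 others (15.8% of all genes, 24.6% of bright genes) and in 13 they lay below them (14.7% and 29.6%), again a pattern chosen after the values were seen. The 26 were 11 of complex I, 1 of complex II, 3 of complex III, 5 of complex IV, 4 of complex V and 2 assembly factors. By the difference of that pair's mean from the mean of the other 5, Cox6a2 led at 1.46. Uqcrq followed at 0.47 and Ndufab1 at 0.38. Next came Ndufaf5, an assembly factor of complex I, and Sdhb, each at 0.33, then Cox5a, Ndufs5 and Ndufs4 at 0.32, 0.32 and 0.31. Among the 13 lower ones were Cox7a1 at -0.85, Sdhaf1 at -0.59, Ndufaf4 at -0.53, Uqcrh at -0.39, Ndufb11 at -0.36, Ndufs8 at -0.35 and Atp5g2 at -0.27. With cyclic loess the counts were 39 above and 10 below, and with median centring 18 and 13. Shares of all genes under these alternatives are not given here, so how far these counts stand from background is not shown. The NRF1 letters were in 3 of 22 promoter windows of the higher members and in 2 of 12 of the lower ones, and the ETS letters in 5 and 4.

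Against unstimulated cells, isoforms of complex IV held the widest differences on both Pam3CSK4-pretreated arrays. Cox6a2, the form of subunit 6a typical of heart and skeletal muscle, read 7.15, 7.16, 7.15, 7.04, 7.20, 8.59 and 8.60. The 5 arrays without Pam3CSK4 pretreatment lay between 7.04 and 7.20 and both pretreated ones were well above, 2.75-fold over unstimulated cells on the second. Its other probe set split the same way, at 5.33 to 5.52 against 6.97 and 6.84. Cox6a1, the form found in most tissues, read 14.19, 14.15, 14.09, 14.16, 14.10, 14.26 and 14.24, also with the pretreated pair highest but by far less. Of the 6 measured markers of striated muscle, Myh6, Tnnt2 and Myl2 were below the array median on every array, so their readings cannot show a change. Myh7, Acta1 and Ckm were above it on every array, and none of these 3 differed from unstimulated cells as widely as Cox6a2. Myh7 read 6.08 in unstimulated cells and 5.83 and 6.08 on the pretreated pair, and Ckm 6.47 against 6.64 and 6.68. Acta1 read 7.23 in unstimulated cells and was lower on that pair. The mean of the list was 5.51 to 5.67.

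Cox7a1, the muscle form of subunit 7a, went the other way. It read 8.31, 8.13, 8.0, 8.02, 8.01, 7.40 and 7.08, highest in unstimulated cells and lowest on both Pam3CSK4-pretreated arrays, the unstimulated array being 2.34-fold above Pam3CSK4 then Pam3CSK4. Cox7a2, the common form, spanned 0.14. Cox6b2, the testis form of subunit 6b, read 5.91, 5.86, 5.67, 5.83, 5.93, 4.91 and 5.30, and the readings on the pretreated arrays were below the medians of those arrays, 5.53 and 5.54. Counted from those medians it was lower than in unstimulated cells by at least 0.38 and 0.37. Cox4i2, the form tied to low oxygen in lung, stayed between 5.85 and 6.10.

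Ndufa4, the subunit of complex IV that an inflammatory paralog can replace, read 12.37, 12.27, 12.17, 12.20, 12.10, 12.09 and 12.02. It was highest in unstimulated cells and lowest after Pam3CSK4 pretreatment. That paralog, listed here as AA467197 and not caught by the symbol rule, read 9.82, 10.62, 11.36, 10.51, 12.24, 11.03 and 10.64. It was above the unstimulated array on all 6 others and highest after MDP then Pam3CSK4. Ndufa4l2, a paralog known from low oxygen, was dim and stayed between 6.25 and 6.57.

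**Figure D5:**
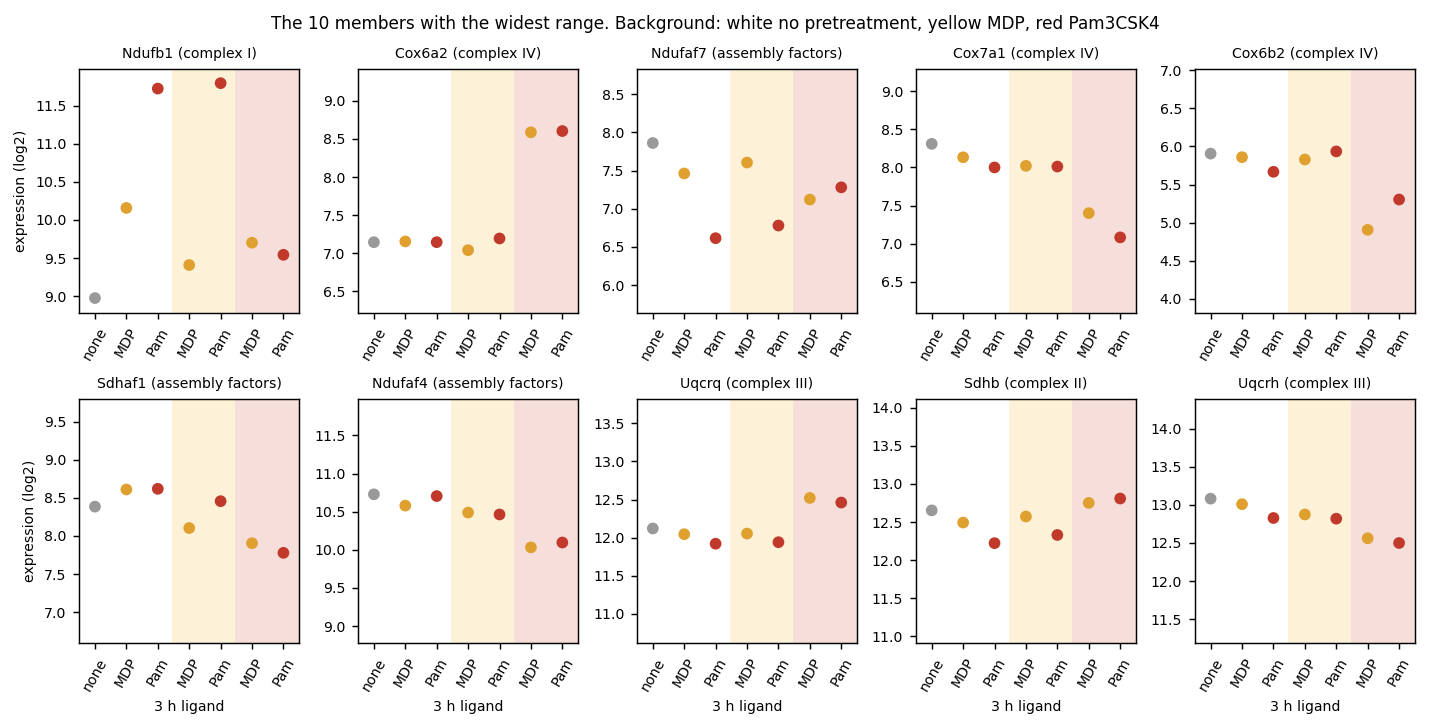
Log2 level on each of the 7 arrays for the 10 members with the widest range, every panel spanning the same 3.2 log2 units, with white, yellow and red backgrounds for no, MDP and Pam3CSK4 pretreatment. Ndufb1 is high on the arrays given Pam3CSK4 without Pam3CSK4 pretreatment, Cox6a2 on both Pam3CSK4-pretreated arrays, and Cox7a1, Cox6b2, Ndufaf4 and Sdhaf1 are low on these.

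The assembly factors, which build the complexes without staying in them, were lower than unstimulated cells on most arrays. Ndufaf7, a methyltransferase that acts during assembly of complex I, read 7.86, 7.46, 6.61, 7.61, 6.78, 7.12 and 7.28. It was lowest on the arrays given Pam3CSK4 without Pam3CSK4 pretreatment, the unstimulated array being 2.37-fold and 2.12-fold above them. It is measured by a single probe set of a less specific class. Ndufaf4, an early assembly factor of complex I whose promoter stretch is printed above, read 10.73, 10.58, 10.70, 10.49, 10.46, 10.03 and 10.10. Here the Pam3CSK4-pretreated pair was lowest, and its dimmer probe set split more widely, at 8.14 in unstimulated cells against 6.68 and 6.74. Sdhaf1, which helps to mount the iron-sulfur clusters of Sdhb, read 8.38, 8.61, 8.62, 8.10, 8.46, 7.91 and 7.78, lowest on the same pair, so it and Sdhb were at opposite ends there.

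Genes with other probe sets bright enough to compare gave a check on the choice of probe set. Of 47 genes with several, all probe sets were lower than unstimulated cells after Pam3CSK4 in 39 (83.0%), against 45.0% of all genes with several and 887 of 1888 bright ones. After MDP then Pam3CSK4 they were so in 41 (87.2%, against 44.4% and 46.0%), after MDP in 31 (66.0%, against 44.1% and 43.0%) and after MDP then MDP in 28 (59.6%, against 35.1% and 37.4%). After Pam3CSK4 pretreatment they were all lower in 20 (42.6%) and all higher in 11 (23.4%) with either second ligand, close to the shares of bright genes, 44.2% and 24.5% with MDP and 43.7% and 26.5% with Pam3CSK4.

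Lists of related genes placed the chain among other mitochondrial functions. For the counts below, 49.8% of all genes and 65.4% of bright genes were lower than unstimulated cells with Pam3CSK4 in naive cells. After MDP then Pam3CSK4 these shares were 52.3% and 61.1%. A wider list of 44 assembly factors had a median of -0.29 in naive cells given Pam3CSK4 (39 lower) and -0.21 after MDP then Pam3CSK4 (35 lower). In it, Tmem126b, which helps to build the membrane arm of complex I, read 8.56 in unstimulated cells and 6.93 and 7.12 on those arrays. The 76 mitochondrial ribosomal protein genes, whose products translate the subunits encoded in mitochondrial DNA, had medians of -0.22 (62 lower) and -0.14 (63 lower) on the same arrays. The tricarboxylic acid cycle and pyruvate entry list of 25 had -0.17 (20 lower) and -0.16 (18 lower). There, Pdp1, the phosphatase that activates pyruvate dehydrogenase, read 8.91, 8.31, 6.91, 8.68, 7.12, 8.94 and 9.08, low on the same pair as Ndufaf7. Acod1, which makes itaconate, an inhibitor of succinate dehydrogenase, was at 7.85 in unstimulated cells and at 12.85 to 14.02 on arrays other than MDP then MDP, where it read 11.24.

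Of 15 glycolysis genes, 8 were above unstimulated cells with Pam3CSK4 alone, 15 after Pam3CSK4 then MDP, with a median of 0.40, and 14 after Pam3CSK4 then Pam3CSK4. Of all 18193 genes 8250, 9097 and 9356 were higher on these arrays, and of 3181 bright genes 1085, 1306 and 1309. For the lists that follow, 45.8% and 44.0% of all genes were lower on the 2 Pam3CSK4-pretreated arrays, and 58.7% and 58.6% of bright genes. Slc16a3, the lactate exporter, read 9.44 in unstimulated cells and 10.56 and 10.64 on the pretreated arrays. Of 13 genes for cytochrome c and coenzyme Q synthesis, 9 were lower with Pam3CSK4 in naive cells, at a median of -0.27, and 7 were lower on each Pam3CSK4-pretreated array, at medians of -0.026 and -0.013. Cycs, cytochrome c itself, read 12.48 in unstimulated cells and 12.79 and 12.83 on those arrays. Of 11 carriers of nucleotides, phosphate and anions, 6 and 7 were higher than in unstimulated cells on the pretreated arrays, with a median of 0.06 on each. Slc25a10, the dicarboxylate carrier, read 9.89 in unstimulated cells and 11.28 and 11.22 there, Slc25a1, the citrate carrier, 10.16 against 11.02 and 10.90, and Nnt, the proton-driven enzyme that makes NADPH, 9.56 against 8.36 and 8.59. Slc25a10 was about as high without that pretreatment, 1.36 above unstimulated cells on naive Pam3CSK4 and 1.34 above them on MDP then Pam3CSK4. Of 20 regulators of mitochondrial biogenesis, 12 and 13 were lower on the pretreated arrays and 7 higher on each, with medians of -0.29 and -0.20. Gabpa, a subunit of the factor that binds the ETS letters, read 9.75 against 9.02 and 9.13, and Nrf1 8.33 against 7.67 and 7.87, whereas Hif1a, a factor of the response to low oxygen, read 12.08 against 12.37 and 12.43. Hif1a was higher still without that pretreatment, 0.67 above unstimulated cells on naive Pam3CSK4 and 0.71 above them on MDP then Pam3CSK4. Of the subunits encoded in mitochondrial DNA only ND5 was measured, at 11.22 to 11.73, highest with Pam3CSK4 in naive cells.

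Array medians were 5.48 to 5.55, which the normalisation sets nearly equal, and the Gapdh 3′ and 5′ control probe sets differed by 0.018 to 0.090. The Pam3CSK4 then Pam3CSK4 array stood apart in its 18S ribosomal RNA control signal, 1.70 above the unstimulated array, where the others were at most 0.48 above. With fewer arrays the patterns are easier for any gene to meet. Without this array, 50 members were lowest on the Pam3CSK4 arrays without Pam3CSK4 pretreatment (14.1% of all genes, 23.9% of bright genes), against 42 with it. Pam3CSK4 then MDP alone was then highest in 29 members (24.0% and 27.2%) and lowest in 15 (21.6% and 33.9%). Of other cell types, neutrophil markers were above the array median in 7 of 8, with a mean of 8.24 to 8.54. After Pam3CSK4 pretreatment they split. S100a8 read 11.03 in unstimulated cells and 12.15 and 12.13 on the pretreated arrays, and S100a9, Prtn3 and Elane were also higher. Ltf was lower, at 7.57 against 6.88 and 6.41, and so was Camp, at 7.71 against 7.53 and 7.45. Ngp read 10.26 in unstimulated cells and 10.26 and 10.08 on the pretreated arrays. Lists for other cells were above the array median in part, from 1 of 6 for mast and erythroid cells to 5 of 6 for B cells. Ighm, of B cells, read 10.42 to 10.50 on the naive arrays and 7.73 to 8.54 on the 4 pretreated ones. Other B cell markers did not go with it on the Pam3CSK4-pretreated arrays. Cd79b read 7.58 in unstimulated cells and 8.16 and 7.97 there, Blnk 12.68 against 12.73 and 12.74, and Pax5 was also higher. Cd79a and Ms4a1 lay below the array median on that pair. Dcn, of stromal cells, read 6.28 to 6.69 on the arrays without Pam3CSK4 pretreatment against 8.34 and 8.03 with it. The mean of the macrophage markers was highest on the Pam3CSK4-pretreated arrays, at 13.19 and 13.24 against 12.63 to 12.96, but the markers split. Adgre1, Itgam, Fcgr1 and Lyz2 were highest on that pair, and Mertk and Cd14 lay within the span of the other arrays. Csf1r and Cd68 were lowest on it, at 14.04 and 14.10 against 14.34 in unstimulated cells, and at 14.01 and 14.01 against 14.26. The part of such differences in the values of the chain was not tested.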

How the data were processed

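Affymetrix mouse expression arrays of 7 samples were analysed, 1 per group, grouped by their labels, all of which carry replicate number 2. The deposited values are log2 intensities. The submitters' processing notes name RMA and affy as what the authors used to make them; versions are not given in the sources used here. RMA quantile-normalises arrays, which removes any shift shared by all genes, and compresses small differences at low signal.

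Of 45101 probe sets, 34945 have a single gene symbol in the platform annotation, 932 have several and 9160 none; 18193 genes remain without 64 control probe sets. Differences are of log2 values, and a fold is 2 to that power. A value under its array's median was not told from background: a difference was then counted from that median, and none was given where both lay under it. Members were matched to RefSeq by gene identifier (94 of 94). The genes and lists were chosen with earlier results of these data known, and counts over all genes stand in for tests. Named genes were the 3 highest and 3 lowest members per comparison, those past 2-fold, the 10 widest, the 3 narrowest per complex, a fixed set of catalytic, structural and isoform members, and in related lists those past 2-fold or the 2 highest and lowest; others, such as neighbours of Ndufb1, were chosen after their values were seen. Alternatives were median centring, cyclic loess (limma 3.58.1 in R 4.3.3), averaging the probe sets of each gene, omission of the less specific class of probe set, an offset of 32 on the linear scale and a filter on dim genes. Python 3.11.15, pandas 2.3.3 and numpy 2.4.6 were used, and the calculation was tested on simulated data.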

Additional observations from a re-analysis of the deposited data

How the results depend on the processing

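No paired analysis was possible because each group has 1 array and all carry the same replicate number, so leaving out a replicate was not possible either, and no value here has a replicate error. Precision is limited by how few arrays there are, and most members differ by less than 0.5 between any arrays. Of the counts and medians for the members, 127 values under alternatives stayed close to the reported ones, 14 moved, and 3 medians moved and changed sign. A median was called close when it moved by less than 0.05, whatever its sign, and a count when it stayed within 1.5-fold. Many reported medians are near that tolerance in size, so a close median can have another sign. MDP then MDP against naive MDP went from -0.0010 to 0.0020 when the probe sets of each gene were averaged. With cyclic loess the median difference from unstimulated cells was -0.015 for MDP, -0.087 for Pam3CSK4 and -0.067 for MDP then Pam3CSK4, and it changed sign to 0.042 for Pam3CSK4 then MDP and 0.030 for Pam3CSK4 then Pam3CSK4. With median centring, MDP then MDP against naive MDP turned from -0.0010 to 0.0605. Without less specific probe sets, members 1.5-fold lower than unstimulated cells numbered 1 for MDP, 0 for Pam3CSK4 (Ndufaf7 is then not measured) and 1 for MDP then MDP. For Pam3CSK4 then Pam3CSK4 that count was 7 with median centring, 2 with cyclic loess and 2 with the offset. For MDP then MDP against naive MDP it was 1 with median centring, cyclic loess, the offset and the filter on dim genes. Members above all other arrays on both Pam3CSK4 arrays without Pam3CSK4 pretreatment numbered 5 with cyclic loess. Shares of all genes under the alternatives are not set beside these counts, which show only how the counts moved. Of values for named genes, 263 stayed less than 0.1 from the reported ones and 32 moved, 14 of them with the offset, which shrinks differences of dim genes. The cause of the other moves was not tested.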
